A study of Homo sapiens with 4 samples.

Results

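Genes of the DNA damage response and of DNA repair were examined for H4K20me1, a single methyl group on lysine 20 of histone H4, in Kasumi-1, a cell line from acute myeloid leukemia with the t(8;21) translocation. The mark was profiled by CUT&Tag, in which a transposase tethered to an antibody cuts out and tags the chromatin that bears the mark. The libraries were 2 from cells with a SETD8 knockout made by CRISPR/Cas9 (sgSETD8) and 2 from cells with a non-targeting guide and the genotype label WT (sgNT). All 4 came from 100000 cells each, and the labels do not say whether the cells were clones or from separate cultures. The members were 51 genes chosen by name, and a peak was theirs where the authors' annotation named the gene and did not call the peak distal intergenic. Peaks were listed for 32 of the 51 genes, 56 peaks of 19703 gene peaks and 25514 peaks in all. H2AX entered by its gene number, since its 1 peak carries the older symbol H2AFX.

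The deposited table gives 1 value per peak for each of the 2 groups, not per library. No header says which group comes first. Its name reads treated against control, by which sgSETD8 would be the first-listed group, but this is not stated, so the groups are called first-listed and second-listed. Low values of both columns are logs of whole numbers of reads, and the reads so recovered summed over peaks to 2791207 for the first-listed and 2682916 for the second-listed group, with a median of 72 per peak in each. The submitters' processing notes list DESeq for 2 of the 4 libraries, which are the sgSETD8 and sgNT libraries not marked #2, and how many libraries stand behind a column is not given. Each difference below is a log2 ratio of scaled reads, first-listed minus second-listed, with an exact Clopper-Pearson 95% interval that covers counting error only. There was no replicate check for any of them. Scaling both columns to equal reads in peaks would lower every ratio by 0.11, and without spiked-in DNA a loss of the mark that is equal everywhere cannot show. A histone mark does not measure the edit or the cell type, so the labels were not checked by these values.

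SETD8, now named KMT5A, places the methyl group measured here, and other enzymes extend it to the dimethyl form. That form is read at broken DNA by 53BP1, which favours end joining over recombination, while histones not yet methylated at this lysine, found behind the replication fork, are read by TONSL and by the BRCA1 partner BARD1. The enzyme itself is degraded in S phase and after DNA damage. The question here is how the mark lies over the genes that carry out these repair pathways, and where the groups differ.

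The repair genes split into both directions, with 15 of 32 below 0 and 17 above. The percentage below 0 was 46.9% of the repair genes and 38.2% of all 9038 genes with a peak, and the median gene ratio was 0.02 against 0.09 over all genes. With both columns scaled to equal reads, 20 of the 32 and 53.2% of all genes lay below 0. The genes that crossed 0 were RNF8, EXO1, FANCM, PARP2 and ERCC3, all of which stood within 0.06 of 0. BRIP1 was the lowest gene (−0.73) and ERCC1 the highest (0.75). The interval lay below 0 for 5 genes (BRIP1, XRCC2, BRCA1, H2AX and MSH6), where the share among all genes was 8.97%, and above 0 for 4 (ERCC1, MRE11, RIF1 and WRN), where it was 23%. For the other 23 genes the interval included 0. With equal reads the interval stayed above 0 for MRE11 and ERCC1 only, and it came to lie below 0 for CHEK1, RNF168, NBN, FANCL and USP1 as well. The shift of 0.11 lowers every gene, and the share of all genes with such an interval at this scaling is not given. Whether both ends of each fragment were counted is not given in the sources used here. With reads divided by 2 for that case, the interval lay below 0 for H2AX, XRCC2, BRIP1 and MSH6 (4.45% of all genes) and above 0 for WRN and MRE11 (14.2% of all genes).

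**Figure D1:**
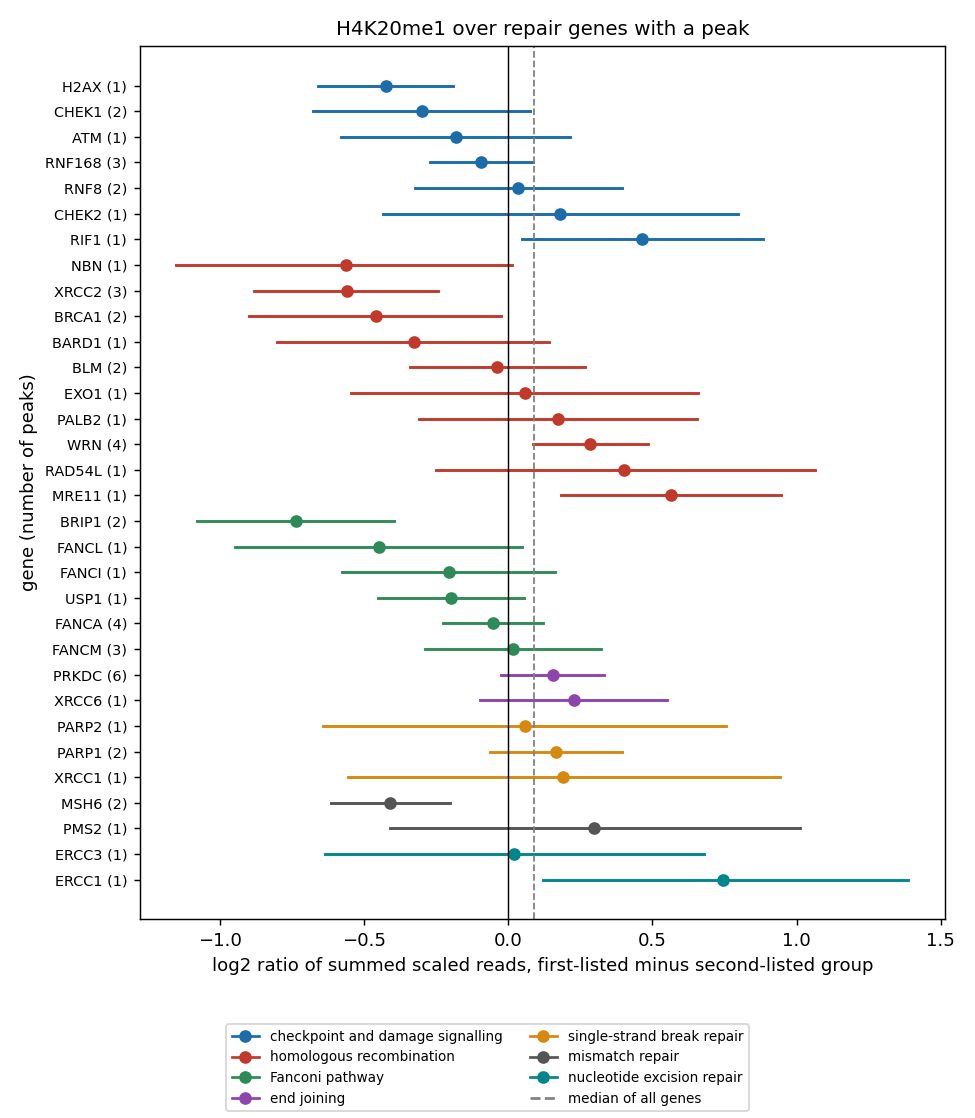
Log2 ratio of summed scaled reads (first-listed minus second-listed group, x axis) for the 32 repair genes with a peak, grouped by role, with the number of peaks in brackets. Points are genes, bars are exact 95% intervals for counting error, and the dashed line is the median of all genes, 0.09. BRIP1 stands lowest at −0.73 and ERCC1 highest at 0.75, and 23 bars include 0.

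Among single peaks, 6 of 56 (10.7%) had a ratio of −0.5 or less, where 6.88% of all gene peaks did, and 5 (8.93%) had one of 0.5 or more, where 14.7% did. With equal reads these were 10 and 3 peaks, and 11.1% and 9.25% of all gene peaks. An adjusted p under 0.05 was listed in the authors' deposited table for 0 of the 56 peaks and for 0% of gene peaks. By the unadjusted p of the authors' deposited table, 2 member peaks were under 0.05 and both were lower in the first-listed group, against 1.31% of gene peaks lower and 3.89% higher at that limit. They were the start of XRCC2 and the start of BRIP1. The shares of member peaks past these limits were small counts, and they are read as a description of these columns.

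**Figure D2:**
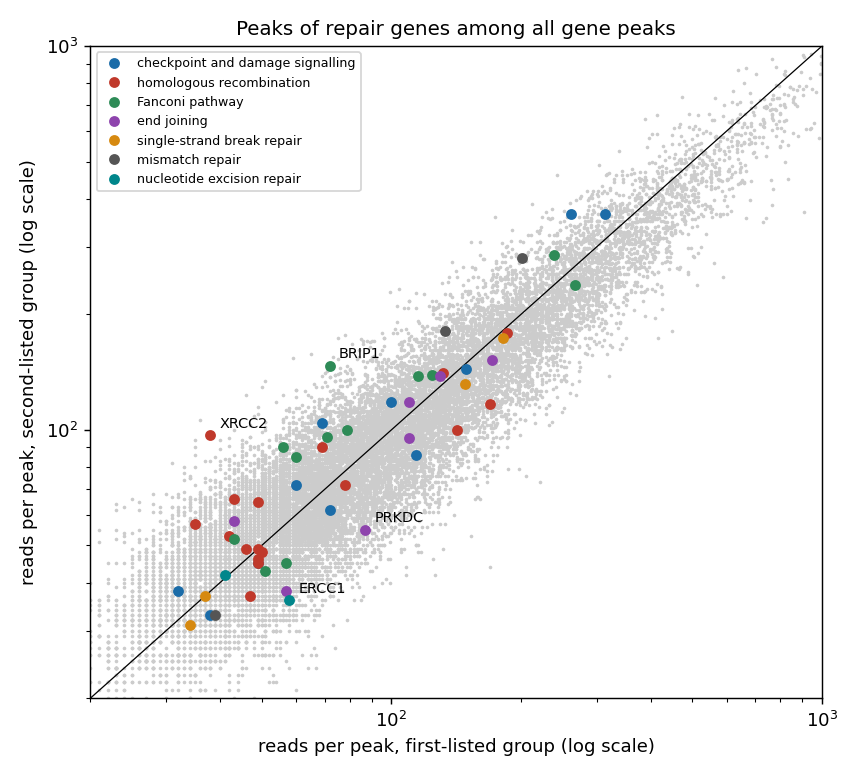
Reads per peak in the first-listed group (x axis, log scale) and in the second-listed group (y axis, log scale). Grey points are all gene peaks between 20 and 1000 reads, coloured points are the 56 peaks of repair genes, and the line marks equal reads. Peaks with a ratio of at least 0.7 in size are named, and XRCC2 (38 and 97 reads) lies farthest above the line.

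Checkpoint and signalling genes had a peak in 7 of 10 cases, with 4 ratios below 0, 3 above and a median of −0.09. H2AX, the histone variant whose phosphorylation marks chromatin around a break, was the lowest of them. Its peak at chr11:119092616-119095661, which covers the gene, had 261 reads (first-listed) and 364 reads (second-listed), a ratio of −0.42 (−0.66 to −0.19). The other peaks within 2.5 Mb of it had a median of 0.19, so H2AX lay below its neighbourhood. RIF1, which acts with 53BP1 to limit resection of DNA ends, was the highest. Its start peak at chr2:151409887-151411439 held 114 and 86 reads, a ratio of 0.46 (0.05 to 0.89), in a neighbourhood with a median of −0.15.

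The kinases of the checkpoint lay between these. ATM, the kinase that responds to double-strand breaks, had 100 and 118 reads at its start (−0.18, interval −0.58 to 0.22). CHEK2, a kinase that ATM activates, had 49 and 45 reads at its own (0.18, −0.43 to 0.80). CHEK1, the kinase downstream of ATR, had a start peak of 69 and 104 reads (−0.53, −0.995 to −0.08) and a peak in intron 11 of 12 of 38 and 33 reads (0.26, −0.45 to 0.98). Neither ATM nor CHEK2 differed beyond counting error, and the 2 peaks of CHEK1 lay on opposite sides of 0 with intervals that overlapped. RNF8 and RNF168, ubiquitin ligases that mark chromatin at breaks, gave 0.04 and −0.09 over their 2 and 3 peaks. The start of RNF168 (chr3:196500223-196503472) was the widest of all 56 peaks, at 3250 bases, with 313 and 366 reads. One of the RNF8 peaks lies inside an intron of another gene, TBC1D22B, and with peaks in introns given to their host the start peak alone gives −0.21 for RNF8. ATR, its partner ATRIP and the adaptor MDC1 had no peak listed. The nearest peak to ATR, within 3 kb of the gene at the promoter of XRN1, gave 0.37 (−0.04 to 0.79).

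Genes of homologous recombination were evenly split, with a peak in 10 of 16 genes, 5 below 0 and 5 above, and a median of 0.01. The lower end held XRCC2, a mediator of strand exchange, NBN, a subunit of the complex with MRE11 and RAD50, and BRCA1 with its partner BARD1. The start peak of XRCC2 at chr7:152675462-152676253 had 38 reads (first-listed) and 97 reads (second-listed), a ratio of −1.29 (−1.88 to −0.74). In the authors' deposited table this peak had an unadjusted p of 0.00256 and an adjusted p of 0.649. A peak in its intron 1 of 2 had 50 and 48 reads (0.12). Another, 11991 bases from the start and called a promoter peak by the authors' annotation, had 49 and 65 (−0.35, −0.92 to 0.21). The largest difference in XRCC2 thus lay at the start, in a neighbourhood with a median of 0.20. Over the 3 peaks the gene gave −0.56 (−0.88 to −0.24).

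NBN had 43 and 66 reads at its start, a ratio of −0.56 whose interval reached 0.02. BRCA1, which directs the choice of recombination, had a peak at chr17:43126634-43127223, whose centre lies at −1564 bases from the nearer RefSeq start, with 35 and 57 reads (−0.65, −1.30 to −0.01). A weaker difference was seen in an upstream intron of a longer BRCA1 transcript (42 and 53 reads, −0.28). The centre of this peak lies at −15212 bases from the same start. Both peaks given to BRCA1 thus lie upstream of the nearer start, and whether their reads belong to another gene there was not tested. A further peak at the start of the longer transcript was given by the annotation to LOC101929767 and had 79 and 93 reads (−0.18, −0.63 to 0.27). This peak overlaps the pseudogene BRCA1P1, so its reads are uncertain between the copies. The surrounding peaks on chromosome 17 had a median of −0.17, and their part in the BRCA1 values was not tested. BARD1 gave −0.33 (−0.80 to 0.14) from 69 and 90 reads at its start.

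The upper end of the recombination genes held MRE11, RAD54L and WRN. MRE11, the nuclease that starts resection, had 142 and 100 reads at chr11:94493563-94494473 (0.56, 0.18 to 0.95), on the other side of 0 from its complex partner NBN. With each read counted as independent, the intervals of these 2 genes did not overlap. They could overlap if both ends of a fragment were counted, since both would then be wider. RAD54L, a motor protein of recombination, gave 0.40 from 47 and 37 reads, with an interval of −0.25 to 1.06 that includes 0. WRN, a RecQ helicase, had 4 peaks, all above 0, and 453 and 387 reads in sum (0.28, 0.08 to 0.48). The peak in its first intron carried most of that difference, with 169 and 117 reads (0.59, 0.24 to 0.94), while the start gave 0.11 and the peaks in introns 33 and 34 gave 0.15 and 0.18. BLM, another RecQ helicase, gave −0.04 over 2 peaks, EXO1, an exonuclease of resection, 0.06, and PALB2, the bridge between BRCA1 and BRCA2, 0.17. BRCA2, RAD50, RAD51B, RAD51C, RAD52 and RBBP8 had no peak of their own. A peak that covers the start of RBBP8, which encodes the resection factor CtIP, was given by the annotation to the microRNA gene MIR4741 and held 54 and 58 reads (−0.05, −0.61 to 0.51).

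Fanconi genes, whose products clear crosslinks between the DNA strands, had a peak in 6 of 8 cases, and 5 of these were below 0, or 6 with equal reads. Their median was −0.20 and the sum over 12 peaks, 1234 and 1458 reads, gave −0.18 (−0.29 to −0.07). Without BRIP1 the other 10 peaks, with 1119 and 1259 reads, gave −0.11 (−0.23 to 0.00). Sums over a role also left out 0 for checkpoint genes (−0.13, −0.24 to −0.02), mismatch repair (−0.35, −0.55 to −0.15) and end joining (0.17, 0.02 to 0.33). They included 0 for recombination (0.01, −0.10 to 0.13), single-strand break repair (0.16, −0.05 to 0.36) and nucleotide excision repair (0.40, −0.04 to 0.85). All of these intervals would be wider if both ends of a fragment were counted. BRIP1, the helicase that binds BRCA1, was the lowest of all members. Its start peak at chr17:61861728-61863453 held 72 and 147 reads, a ratio of −0.97 (−1.40 to −0.56), and in the authors' deposited table its unadjusted p was 0.0167 and its adjusted p 0.89. Its other peak, in intron 6 of 19, had 43 and 52 reads (−0.22, −0.83 to 0.39). The surrounding peaks had a median of −0.11, so BRIP1 lay below a neighbourhood that was itself below 0.

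FANCL, the ubiquitin ligase of the pathway, gave −0.45 (−0.95 to 0.05) from 60 and 85 reads in intron 1. It lies on the short arm of chromosome 2, where the surrounding peaks had the lowest median of any member's neighbourhood, −0.29 over 16 peaks. FANCI, a target of that ligase, gave −0.21 from 115 and 138 reads, and USP1, the enzyme that removes the ubiquitin, −0.20 from 239 and 285 reads. Both intervals included 0. FANCA, a scaffold of the core complex, had the most reads of all members with both columns added, 526 and 567 over 4 peaks, and gave −0.05 (−0.22 to 0.12). Its peaks ran from −0.63 (−1.14 to −0.13) in intron 29 of 42 to 0.22 (−0.03 to 0.48) near the far end of the gene. The authors' annotation calls the latter a promoter peak. With each read counted as independent these 2 intervals did not overlap, but they could if both ends of a fragment were counted. FANCM, the translocase that recruits the core complex, was the highest Fanconi gene at 0.02 (−0.29 to 0.32). FANCC and FANCD2 had no peak.

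End joining and single-strand break repair genes lay above 0 wherever they had a peak, by small ratios, and PARP2 was below 0 with equal reads. PRKDC, the catalytic subunit of the DNA-dependent kinase, had the most peaks of any member, 6, with 537 and 502 reads in sum (0.15, −0.02 to 0.33). They ran from −0.37 (−0.98 to 0.22) in intron 30 of 85 to 0.72 (0.22 to 1.23) in intron 36 of 85, and 3 of the 6 were above 0. Nearby stretches of this gene thus had ratios on both sides of 0, but the intervals of its lowest and highest peak overlapped. XRCC6, which encodes the Ku70 part of the ring that binds DNA ends, had 171 and 152 reads at its start (0.23, −0.10 to 0.55). XRCC4, XRCC5 and LIG4 had no peak of their own. A peak next to the start of XRCC4, given to TMEM167A, had 43 and 36 reads (0.31, −0.36 to 0.99). PARP1, the sensor of strand breaks, gave 0.17 (−0.06 to 0.40) from 330 and 306 reads over 2 peaks. XRCC1, the scaffold that PARP1 recruits, gave 0.19 (−0.55 to 0.94) from 34 and 31 reads and was the highest of its group. PARP2 had 37 reads in each column (0.06, −0.64 to 0.76) and LIG3 had no peak. The interval of each gene with a peak in both roles included 0, so the directions of single genes are not settled. The sum over the 7 end joining peaks, 708 and 654 reads, gave 0.17 (0.02 to 0.33). Its lower bound is smaller than the 0.11 by which equal reads would lower it.

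Mismatch repair had 2 genes with a peak and they stood on opposite sides. MSH6, a sensor of mismatched bases, had 201 and 280 reads at its start (chr2:47783034-47784680, −0.42, −0.69 to −0.15) and 133 and 181 reads in a second peak just downstream (chr2:47785938-47786429, −0.39, −0.72 to −0.06). The downstream peak was the densest of all 56, with 271.2 and 352.9 scaled reads per kb of peak. A further peak inside the gene, given by the annotation to its neighbour FBXO11, had a ratio of −0.44 (−0.85 to −0.03). These 3 peaks were alike, in a neighbourhood with a median of −0.24 whose part in the MSH6 values was not tested. PMS2, which nicks the strand to be repaired, gave 0.30 (−0.41 to 1.01) from 39 and 33 reads, and MSH3 had no peak.

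Nucleotide excision repair had peaks in 2 of 5 genes. ERCC1, which forms the incision nuclease with XPF, was the highest of all members. Its peak at chr19:45423724-45424465 covers an internal RefSeq start of the gene and held 58 and 36 reads, a ratio of 0.75 (0.12 to 1.39). A peak 3 kb or less beyond the other end of the gene, at the promoter of PPP1R13L, held 81 and 55 reads (0.62, 0.10 to 1.14), while the wider neighbourhood had a median of 0.09. ERCC3, the XPB helicase, gave 0.02 from 41 and 42 reads in intron 12 of 14. ERCC2, XPA and XPC had no peak.

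A peak was listed for 62.7% of the repair genes and for 38.8% of 20052 protein-coding genes. The repair genes are long, with a median of 54.1 kb against 24.1 kb, and protein-coding genes weighted to the same length classes had a peak in 48.6% of cases. Repair genes with a peak were not the longer ones, with a median of 49.4 kb against 79.4 kb for those without. Promoters held 60.7% of the member peaks, where they held 44.4% of all gene peaks, and introns 32.1%, where they held 47.1%. A start peak, meaning one within 1 kb of a RefSeq start of its own gene, was present in 25 members, and these made up 44.6% of member peaks against 24.6% of all gene peaks. The member start peaks were less dense than others, with a median of 60.9 and 74.4 scaled reads per kb in the first-listed and second-listed group, against 81.3 and 77.1 for all start peaks. By density in the first-listed group, MRE11 (155.9 and 105.7), MSH6 (122.0 and 163.2) and XRCC6 (116.6 and 99.4) were the densest starts and CHEK2 (38.0 and 33.5) the least dense.

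Among repair genes, lower ratios were more frequent at start peaks than at other peaks. Of the 25 start peaks 15 (60%) were below 0, where 39.6% of all start peaks were, and their median was −0.18 against 0.09. With equal reads, 17 of the 25 and 52.9% of all start peaks were below 0. A ratio of −0.5 or less was seen at 4 of them, XRCC2, BRIP1, NBN and CHEK1, where 6.59% of all start peaks had one, and 2, ERCC1 and MRE11, had 0.5 or more, where 12.2% did. All 5 Fanconi start peaks were below 0. The remaining 31 member peaks had 13 below 0 (41.9%) and a median of 0.11, close to the median of 0.10 over all other gene peaks.

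In 10 repair genes with both kinds, the start peak had a lower ratio than the other peaks of the gene summed, in each of the 10. Over all 2107 genes with both kinds, 54.9% were so. The gap was −1.16 in XRCC2, where the intervals of start and other peaks did not overlap, −0.80 in CHEK1, −0.76 in BRIP1 and −0.73 in FANCM. It was −0.48 in RNF8, −0.30 in WRN, −0.28 in FANCA and −0.22 in RNF168, and only −0.03 in MSH6 and −0.004 in BLM. The other peak counted for RNF8 lies in an intron of TBC1D22B, so this gap is not one within RNF8. The intervals overlapped in all of these but XRCC2, where they too could overlap if both ends of a fragment were counted. Some of the other peaks, in XRCC2, FANCA, MSH6 and BLM, are promoter peaks by the authors' annotation. The comparison was chosen after the values were seen and has no test. In 83 other repair genes, listed by name as described with the processing, 14 had both kinds of peak and the start was the lower in 4.

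**Figure D3:**
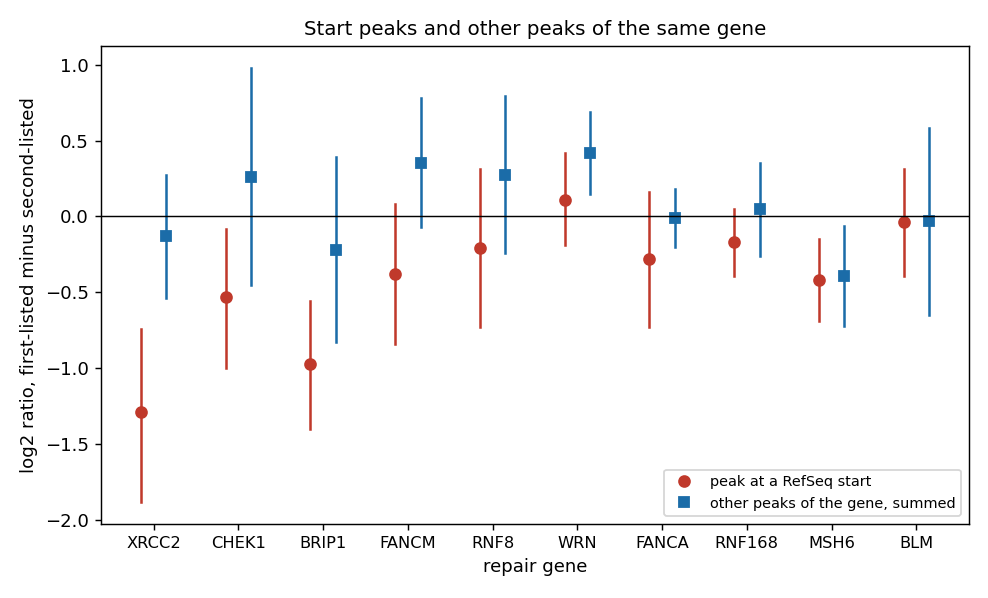
Log2 ratio (first-listed minus second-listed group, y axis) of the peak at a RefSeq start (red circles, left) and of the other peaks of the same gene summed (blue squares, right) in the 10 repair genes with both. Bars are exact 95% intervals for counting error. The start lies lower in each gene, with a gap of −1.16 in XRCC2, where the bars are apart, and of −0.004 in BLM. Bars count each read as independent, and the other peak of RNF8 lies in an intron of TBC1D22B.

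The promoter sequences below, from RefSeq (GRCh38.p14, gene strand, 250 bases before to 50 after a start), belong to genes described above. CHEK1 and MSH6 were the lowest and MRE11 and ERCC1 the highest of the members whose peak covers a whole window. XRCC2 and BRIP1 were added after their values were seen. The XRCC2 peak takes in 162 of the 300 bases and the BRIP1 peak begins just past its window, inside the gene. Capitals mark matches, on either strand, to E2F (TTTCCCGC, TTTGGCGC, TTTGCCGC or TTTCGCGC), CCAAT, CRE (TGACGTCA) and ETS (CCGGAAGT) letters, and matches of different motifs were allowed to overlap.
XRCC2 (chr7:152676092-152676391, minus strand): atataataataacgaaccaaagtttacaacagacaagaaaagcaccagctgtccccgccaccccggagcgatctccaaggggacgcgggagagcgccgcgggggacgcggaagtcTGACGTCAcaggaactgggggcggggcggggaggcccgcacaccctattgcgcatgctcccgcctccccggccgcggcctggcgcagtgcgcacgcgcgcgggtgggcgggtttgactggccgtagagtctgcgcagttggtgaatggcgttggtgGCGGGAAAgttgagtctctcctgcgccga
BRIP1 (chr17:61863479-61863778, minus strand): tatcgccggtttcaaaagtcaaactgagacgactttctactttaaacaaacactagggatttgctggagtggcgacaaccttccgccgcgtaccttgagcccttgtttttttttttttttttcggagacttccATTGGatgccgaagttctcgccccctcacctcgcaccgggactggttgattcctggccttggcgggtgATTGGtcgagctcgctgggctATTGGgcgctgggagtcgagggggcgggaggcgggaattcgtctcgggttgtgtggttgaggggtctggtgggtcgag
CHEK1 (chr11:125625974-125626273, plus strand): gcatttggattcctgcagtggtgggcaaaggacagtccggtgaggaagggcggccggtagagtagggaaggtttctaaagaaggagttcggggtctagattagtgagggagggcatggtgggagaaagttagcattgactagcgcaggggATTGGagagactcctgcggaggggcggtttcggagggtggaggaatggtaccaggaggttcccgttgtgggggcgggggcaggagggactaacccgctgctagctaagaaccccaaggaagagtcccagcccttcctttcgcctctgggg
MSH6 (chr2:47783352-47783651, plus strand): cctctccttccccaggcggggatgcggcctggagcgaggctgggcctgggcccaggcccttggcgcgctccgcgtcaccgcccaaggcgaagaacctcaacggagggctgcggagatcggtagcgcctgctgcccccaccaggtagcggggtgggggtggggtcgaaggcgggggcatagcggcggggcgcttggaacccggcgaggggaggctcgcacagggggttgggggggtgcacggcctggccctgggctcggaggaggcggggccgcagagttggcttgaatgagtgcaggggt
MRE11 (chr11:94493795-94494094, minus strand): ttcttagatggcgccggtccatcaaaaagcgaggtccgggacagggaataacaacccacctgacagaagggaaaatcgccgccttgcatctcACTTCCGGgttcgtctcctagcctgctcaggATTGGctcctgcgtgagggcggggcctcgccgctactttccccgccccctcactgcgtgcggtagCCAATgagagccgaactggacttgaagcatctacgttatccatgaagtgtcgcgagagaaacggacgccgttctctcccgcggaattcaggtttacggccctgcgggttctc
ERCC1 (chr19:45423868-45424167, minus strand): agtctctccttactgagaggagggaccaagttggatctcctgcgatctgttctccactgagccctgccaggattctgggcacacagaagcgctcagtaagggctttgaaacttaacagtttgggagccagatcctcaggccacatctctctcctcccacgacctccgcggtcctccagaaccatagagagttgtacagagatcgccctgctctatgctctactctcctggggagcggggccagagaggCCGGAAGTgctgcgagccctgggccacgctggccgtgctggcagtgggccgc

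The XRCC2 window holds a CRE and an E2F match, and the BRIP1 window 3 CCAAT matches. CHEK1 has 1 CCAAT match, MRE11 has 2 with an ETS match, ERCC1 has an ETS match, and this MSH6 window has none of these letters. E2F and CCAAT letters were found in other windows of MSH6, not printed here. Windows were found for 46 of the 51 members, 69 windows in all, and a gene counted if any of its windows matched. All genes here were the 27305 genes with a window, more than the 20052 protein-coding genes. E2F letters were in a window of 10 of the 46 (21.7%), against 4.0% of all genes and 7.7% of genes with a start peak. CRE letters were in 6 (13.0%, against 2.2% and 3.6%), ETS letters in 9 (19.6%, against 4.9% and 9.6%), and CCAAT in 25 (54.3%, against 39.7% and 46.5%). Counted by window, E2F letters were in 15.9% of member windows and 3.3% of all windows, and CRE letters in 13.0% and 1.8%. For ETS letters these were 13.0% and 4.1%, and for CCAAT 46.4% and 34.6%. A match describes the letters only.

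An opposite-strand start of another protein-coding gene lay in 6 of the 25 member start peaks (24%), against 13% of all start peaks. The pairs were ATM with NPAT, CHEK2 with HSCB, MRE11 with ANKRD49, PALB2 with DCTN5, PMS2 with AIMP2 and XRCC6 with DESI1. Of these 6 peaks, which cannot be given to one gene of the pair, only that of ATM was below 0, and their median was 0.20. Of the 19 without such a partner 14 were below 0, with a median of −0.21. Over all start peaks 254 of 629 with a partner and 1664 of 4215 without were below 0, with medians of 0.07 and 0.09. This split was not among the planned comparisons and was not tested. A peak shared with MCM4 at the start of PRKDC, which the annotation gives to MCM4, held 153 and 166 reads (−0.06).

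The median ratio of the other peaks within 2.5 Mb ran from −0.29 around FANCL to 0.28 around PALB2. Of the 56 member peaks 33 lay below the median of their own surroundings and 23 above, and the median gap was −0.04. The surrounding medians were rounded first, and EXO1 and PARP2, counted as below, were level with theirs at 0.06. MSH6, FANCL, BRCA1 and BRIP1 were low in low surroundings, while XRCC2, H2AX and the intron 29 peak of FANCA were low in surroundings of 0.20, 0.19 and 0.15. RIF1 was high in surroundings of −0.15.

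**Figure D4:**
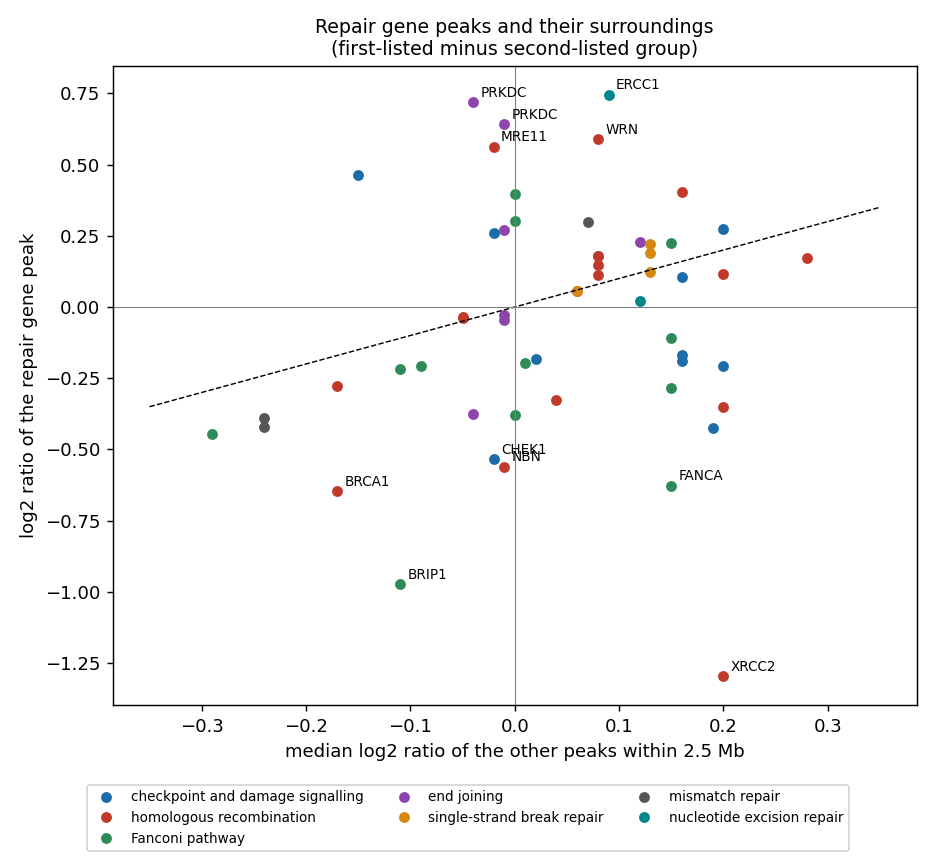
Log2 ratio of each of the 56 repair gene peaks (y axis) against the median log2 ratio of the other peaks within 2.5 Mb (x axis), both first-listed minus second-listed group. Colours are roles, the dashed line marks equal values, and peaks with a ratio of at least 0.5 in size are named. XRCC2 lies farthest below the line, at −1.29 in surroundings of 0.20.

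The 83 other repair genes had a peak in 46 cases (55.4%), with 19 below 0 and 27 above and a median of 0.11. Of their 69 peaks 2 had a ratio of −0.5 or less and 9 had 0.5 or more. Their 34 start peaks had 14 below 0 and a median of 0.06, so the lower start peaks of the members were not seen in this list. The lowest gene was APEX1, the endonuclease of base excision repair, with 60 and 100 reads (−0.68, −1.17 to −0.20). The highest was MAD2L2, a subunit of the shieldin complex, with 80 and 46 reads (0.85, 0.31 to 1.41).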

How the data were processed

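The build hg38 and the tools Bowtie2, cutadapt and DESeq are named per the submitters' processing notes. Their versions, the peak caller and the handling of duplicates are not given in the sources. The authors deposited log2 scaled reads per peak for each group, a log2 fold change and p-values before and after adjustment. Columns are named by number only and were identified by their values. Every low log2 value (1.5 to 5.5) equals log2 of a whole number plus a constant per column (0 and −0.057) within 0.0051, which gave back the reads. Ratios computed from them are within 0.005 of the deposited fold column at member peaks. Numbers of 2 to 7 reads were even in 75.5% and 86.9% of cases, so both ends of a fragment may have been counted, and intervals would then be too narrow. A single column for each group left nothing to test a difference with. Member peaks held 31 to 366 reads. A gene's ratio is that of reads summed over its peaks.

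Peak coordinates are those of the deposited table (hg38). Symbols, lengths and starts came from RefSeq (GRCh38.p14), with the gene's outer bound where no promoter window was listed. Members, roles and the other repair genes were chosen with earlier results of these data known. The other repair genes are further genes of checkpoint, crosslink, excision, mismatch, end joining and translesion pathways. Every member with a peak is named. The highest and lowest of each role, those with most peaks or reads and those with an unadjusted p under 0.05 are given in full. The recovery of reads and intervals was tested on simulated data. The simulated reads were drawn independently, so this could not test the intervals for the case that both ends of a fragment were counted. Python 3.11.15, pandas 2.3.3 and scipy 1.17.1 were used.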

Additional observations from a re-analysis of the deposited data

How the results depend on the processing

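Start peaks, symbol spelling, the start comparison and reads divided by 2 were settings chosen after seeing the data. Peaks past 0.5, of which 6 were lower and 5 higher, numbered 10 and 3 with equal reads in peaks, 3 and 2 at or above the median signal, 14 and 9 at a limit of 0.3, and 1 and 0 at a limit of 1. Promoter peaks held 3 of the higher ones. By the unadjusted p of the authors' deposited table, the 2 peaks under 0.05 became 1 at 0.01, 4 at 0.1 and 1 at or above the median signal. Genes with a peak numbered 20 in place of 32 at or above the median signal. Fewer peaks, other limits or a constant shift account for these by construction. Apart from equal reads in peaks, shares of all gene peaks at these settings are not given, so the counts describe the members alone. The median gene ratio of 0.02 ran from −0.18 for start peaks to 0.05 without 2p, 9q and 17q. Genes below 0 ran from 11 without these arms to 20 with equal reads, over differing numbers of genes. They were 13 of 20 genes at or above the median signal, with a median of −0.13, and 15 of 25 for start peaks. Genes whose start lay below their other peaks were 10 of 10, where 54.9% of all genes with both kinds were. For peaks that overlap a start they were 7 of 7 (53.7% of all such genes). With a reach of 3 kb they were 10 of 10 (54.0%), and at or above the median signal 4 of 4 (57.7%). Gene intervals below 0 numbered 5, or 10 with equal reads in peaks and 4 with reads divided by 2, and those above 0 numbered 4, or 2 and 2. For equal reads the share of all genes with such an interval is not given. No paired analysis was possible because the table has 1 column per group, and leaving out a library was not possible for the same reason.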
